A study of Mus musculus with 4 samples.

Results

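The cells described here were 325 cells of tumour samples, chosen by their UMIs (unique molecular identifiers, each standing for 1 captured transcript). They held at least 3 UMIs summed over Hes1, Gas6, Etv5, Pdlim3 and Myc, from at least 2 of these genes. They were chosen among 2587 eligible cells, those with at least 500 detected genes, at most 10% of UMIs on mitochondrial genes, at least 1500 UMIs and fewer than 3 UMIs summed over the glial and myeloid genes Lhfpl3, Olig1, Aqp4, Aldoc, Slc25a18, Tyrobp and C1qb. The files held 5670 cell barcodes in all. The 325 cells are called 5-gene cells below, and the 1303 eligible cells with 0 UMIs of the 5 genes are called comparison cells. The remaining 959 eligible cells held some UMIs of the 5 genes without meeting the rule and entered neither class.

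The libraries came from medulloblastomas, tumours of the cerebellum, of 4 littermate mice at postnatal day 20, with 1 library of single cells per mouse made by the 10x Chromium 3' method. All 4 mice carried Atoh1-cre and SmoM2, an always active Smoothened that is switched on where Atoh1-cre acts, in precursors of cerebellar granule neurons. There was no second genotype or treatment, so classes of cells were compared within each mouse. The model is limited in that Smoothened is active throughout the lineage that expresses the Cre, and the deposited genes do not tell the SmoM2 transcript from normal Smo, so tumour and non-tumour granule cells cannot be told apart. The files held 3415171, 2573901, 1679285 and 3801197 UMIs for mice 1 to 4, and 2 rounds of sequencing went into mouse 1. In all, 20 barcode sequences occurred in more than 1 library, 4 of them as 5-gene cells and 6 as comparison cells; cells were told apart by library.

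Granule neuron precursors divide in response to the ligand Sonic hedgehog (SHH), which frees Smoothened from its inhibitor Ptch1 and lets Gli transcription factors act. Their descendants leave the cell cycle and switch on genes of neurites and axons. Hes1 encodes a repressor that Notch signalling induces and that holds neural progenitors back from differentiation, and Myc encodes a transcription factor of growth and division. Gas6 encodes a secreted ligand of the receptors Tyro3, Axl and Mertk, Etv5 an ETS transcription factor induced by FGF and ERK signalling, and Pdlim3 a PDZ and LIM domain protein that binds alpha-actinin.

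The working name of these cells was Hes1-high progenitor-like tumour cells, but most of the cells held no Hes1 UMI. Only 95 of the 325 cells (29.2%) held a Hes1 UMI, against 270 (83.1%) with Pdlim3, 187 (57.5%) with Etv5, 164 (50.5%) with Gas6 and 113 (34.8%) with Myc. Of the 1551 UMIs of the 5 genes in these cells, 741 (47.8%) were Pdlim3 and 123 (7.93%) were Hes1. Pdlim3 alone was the most abundant of the 5 in 167 cells and Hes1 in 10. These are counts of 3' tags, so transcript length does not enter the comparison between genes. The cells are therefore named by the rule and by their leading gene, and no new cell type name is given.

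The makeup also differed between mice. Hes1 was found in 62 of 225 5-gene cells of mouse 1, in 18 of 38 of mouse 2, in 0 of 7 of mouse 3 and in 15 of 55 of mouse 4, and 0 of 7 allows a share of up to 42.9%. Pdlim3 was found in 210, 16, 3 and 41 of the same cells. Mice 1 and 4 were thus led by Pdlim3, with 52.8% and 45.1% of the 5-gene UMIs, while in mouse 2 Pdlim3, Etv5 and Gas6 took near-equal parts, 24.2%, 23.6% and 21.3%. In mouse 3 Gas6 and Etv5 led with 8 UMIs each. Pairs of genes in the same cell followed the abundances: Etv5 with Pdlim3 in 148 cells, Gas6 with Pdlim3 in 132, Hes1 with Pdlim3 in 70, and Hes1 with Myc in 27.

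**Figure D1:**
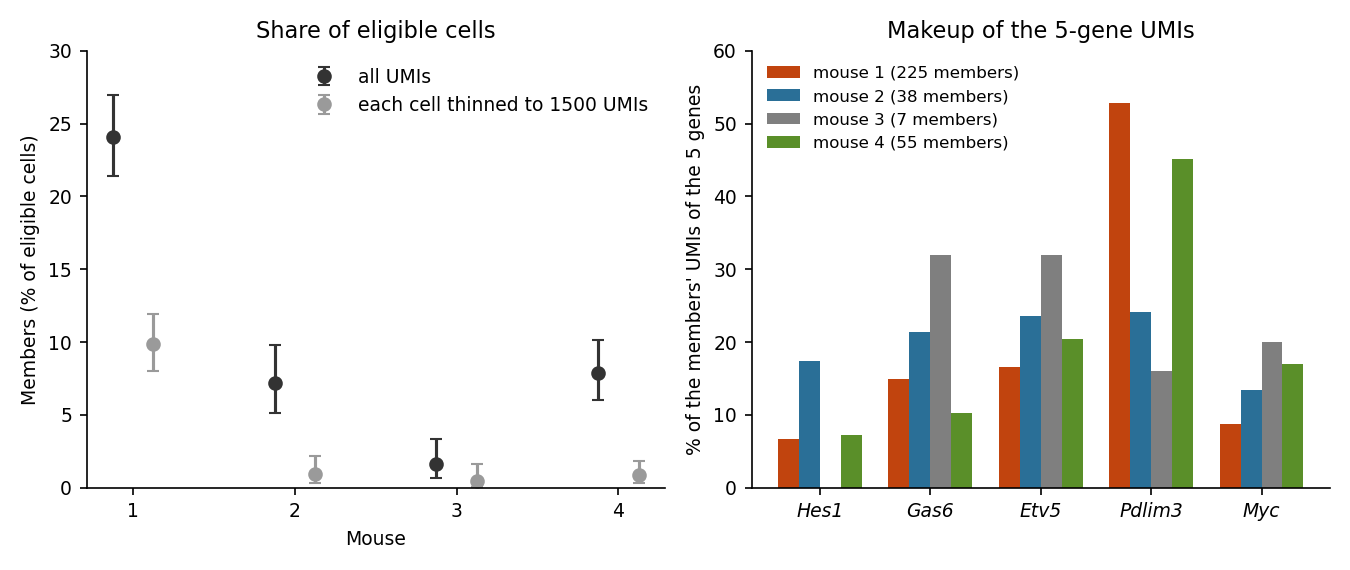
Left, share of eligible cells that were 5-gene cells in each mouse (%), with the rule applied to all UMIs (dark) and to cells thinned to 1500 UMIs (grey); bars are exact 95% Clopper-Pearson intervals. Right, percent of the UMIs of the 5 genes contributed by each gene in the 5-gene cells of each mouse. Mouse 1 has the highest share, and Pdlim3 is the tallest column in mice 1, 2 and 4.

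On mouse build GRCm38, Gas6 lies at chr8:13465374-13494535, Pdlim3 at chr8:45885487-45919635, Myc at chr15:61985341-61990361, Etv5 at chr16:22381313-22439570 and Hes1 at chr16:30065357-30067796. The 250 bases before the start are shown for Pdlim3, which led the rule, and for Gas6, which holds the only motif found. They are 5' to 3' on the gene's own strand, from RefSeq on GRCm38.p6, at chr8:45885237-45885486 (plus strand) and chr8:13494536-13494785 (minus strand). Capitals mark the motif.
Pdlim3: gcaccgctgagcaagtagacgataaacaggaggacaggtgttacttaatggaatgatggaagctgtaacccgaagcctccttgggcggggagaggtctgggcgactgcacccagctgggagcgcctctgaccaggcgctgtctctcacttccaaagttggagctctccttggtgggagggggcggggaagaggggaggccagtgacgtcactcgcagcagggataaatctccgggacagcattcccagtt
Gas6: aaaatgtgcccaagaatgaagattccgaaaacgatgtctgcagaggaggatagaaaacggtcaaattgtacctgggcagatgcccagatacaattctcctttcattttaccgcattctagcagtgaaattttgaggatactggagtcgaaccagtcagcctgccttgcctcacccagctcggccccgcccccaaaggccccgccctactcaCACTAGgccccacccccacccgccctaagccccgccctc
Searched on both strands were the Rbpj motif GTGGGAA, the Gli motif GACCACCCA, the E-box CACGTG and the N-box CACNAG that Hes repressors are known to bind. The Gas6 window held 1 N-box, CACTAG, 39 bases before the start, and the windows of Pdlim3 and of both Etv5 starts held none of the 4. An N-box was present in 36.7% of 27025 such promoters, an E-box in 6.05%, the Rbpj motif in 5.41% and the Gli motif in 0.211%. The promoters of Hes1 and Myc were not analysed here.

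The 5-gene cells were 24.1% of eligible cells in mouse 1 (225 of 934, exact 95% Clopper-Pearson interval 21.4 to 27.0%), 7.22% in mouse 2 (38 of 526, 5.16 to 9.78%), 1.63% in mouse 3 (7 of 430, 0.657 to 3.33%) and 7.89% in mouse 4 (55 of 697, 6.0 to 10.1%). The mean was 10.2% ± 9.67 (SD, n = 4 mice), so the spread was nearly as large as the mean, and mouse 1 supplied most of the cells. Intervals cover counting error only. The median eligible cell held 2448.5, 3205.5, 2043.5 and 3772 UMIs in mice 1 to 4. Pdlim3, whose UMIs enter the share through the rule, stood at 425, 41.1, 17.6 and 135 CPM (UMIs of the gene per 1000000 UMIs of the class) over all eligible cells of the 4 mice. With Pdlim3 left out of the rule the shares were 7.82%, 5.70%, 1.16% and 3.01%. When every eligible cell was thinned to 1500 UMIs and the rule applied anew, 92, 5, 2 and 6 cells qualified, and mouse 1 was still highest at 9.85% against 0.465 to 0.951%. Mouse 1 also had the second round of sequencing, and its tumour and its library cannot be told apart.

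Many of these cells sat close to the limit of the rule. Exactly 3 UMIs of the 5 genes were held by 107 cells, 4 by 79 and 5 or more by 139, with a median of 4 and a highest value of 13. The UMIs came from 2 genes in 182 cells, from 3 in 108, from 4 in 34 and from all 5 in 1 cell. Just outside were 276 cells with 2 UMIs, 141 of them from 2 genes, and 85 cells with 3 or more UMIs of 1 gene only, 69 of these with Pdlim3 alone. Cells with exactly 3 and exactly 2 UMIs were nearly equal in depth, at medians of 2999 and 2917 UMIs.

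Each gene was also read in cells chosen by the other 4, which is a description because the 5 were picked jointly from these data. Etv5 stood at 142 CPM in cells chosen by the other 4 (114 UMIs in 217 cells), against 32.5 CPM in cells with 0 UMIs of the other 4 and 33.6 CPM in such cells matched in depth. Gas6 stood at 131 CPM against 26.4 and 45.4 CPM, and Pdlim3 at 377 CPM against 138 and 222 CPM. Hes1 stood at 53.3 CPM (57 UMIs) against 19.6 and 25.5 CPM, and Myc at 62.4 CPM (62 UMIs) against 40.3 and 37.8 CPM. These values pool all mice, which enter the classes in unequal parts. For Gas6, mouse 1 gave 176 of the 249 chosen cells but 306 of the 1392 with 0 UMIs of the other 4. Etv5 was higher in the chosen cells of every mouse, at 159, 138, 281 and 73.2 CPM against 60.8, 39.3, 32.2 and 12.6 CPM. Gas6 was likewise higher in all 4 mice, at 153, 156, 197 and 57.3 CPM against 65.3, 15.9, 29.5 and 13.8 CPM. Pdlim3 stood at 600, 188, 56.4 and 136 CPM in mice 1 to 4, against 336, 23.7, 9.72 and 123 CPM. Hes1 and Myc were at 0 UMIs in the few chosen cells of mouse 3. In cells excluded for glial or myeloid genes, all 5 were present too, at 34.9 CPM for Hes1, 66.9 for Gas6, 75.3 for Etv5, 145 for Pdlim3 and 40.4 for Myc. In 15 cells with myeloid genes Gas6 was found in 4 cells and the other genes in 0 of 15, which allows a share of up to 20% each.

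**Figure D2:**
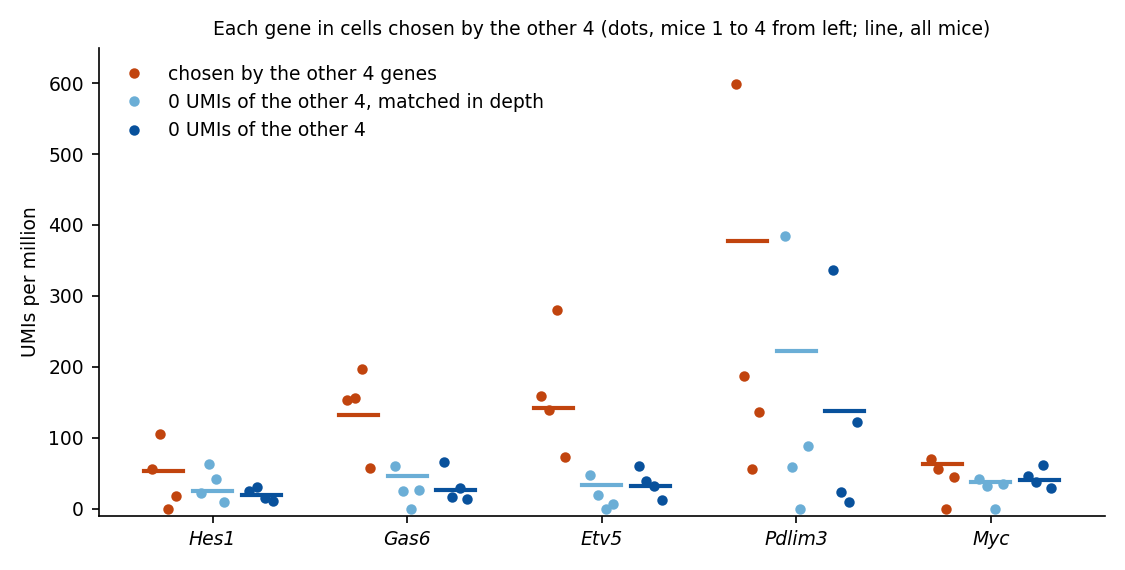
Level of each gene (CPM) in cells chosen by the other 4 genes, in cells with 0 UMIs of the other 4 matched in depth, and in all cells with 0 UMIs of the other 4. Dots are mice 1 to 4 from left to right and lines are all mice together; Etv5 and Gas6 are higher in the chosen cells of each mouse, and Hes1 and Myc are not, with 0 UMIs in mouse 3.

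The question of the main comparison was which other genes differed between 5-gene cells and comparison cells of the same mouse. Mouse 3, with 7 cells, fell under the minimum of 10 cells per class, so tests rest on mice 1, 2 and 4 and values of mouse 3 are given in brackets as description. Counts were added up over the cells of a class in each mouse, and edgeR's quasi-likelihood test was fitted with the mouse as a block and Benjamini-Hochberg adjustment. Of 7183 genes tested, 402 were called at an adjusted p under 0.05 (5.6%), 217 higher in 5-gene cells (3.02%) and 185 lower (2.58%). For 15.7% of the genes the values of the 3 mice did not overlap between classes. The 5 genes of the rule and the 7 excluded genes were left out of the tests. At an unadjusted edgeR p under 0.05, 8.21% of the 7183 genes were higher and 7.49% lower, the background for the unadjusted counts of lists given below. The median log2 fold change of all genes was 0.01. The mice are littermates, and their number limits the precision.

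The classes differed in more than the 5 genes. The 5-gene cells held a median of 3336 UMIs against 2536, and 3.69% of them had a low level of the nuclear RNA Malat1 (under 30 UMIs per 10000) against 13.5%. The main comparison was therefore repeated on pairs of cells from the same mouse within 10% of each other in depth. This choice was made after seeing the data. The 4 mice gave 277 pairs, with medians of 3020 and 2922 UMIs. The 177, 38 and 55 pairs of mice 1, 2 and 4 entered the fit, and the 7 of mouse 3 did not. There, 223 of 4387 genes were called (5.08%, with 2.62% higher and 2.46% lower), and 180 of them were among the 402, all 180 in the same direction. Without Pdlim3 in the rule 158 genes were called (2.2%, with 1.18% higher and 1.02% lower), 140 of them among the 402. Without mouse 1 193 genes were called (2.7%, with 1.36% higher and 1.34% lower), 173 of them among the 402. All shared calls had the same direction. Each named gene was refitted under up to 24 such alternatives in the rule, depth, quality limits, filter, tool, block and mice.

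Genes of neuronal differentiation were lower in the 5-gene cells. Of 41 listed genes 30 were tested, 0 rose and 21 fell, with a median log2 fold change of -0.61. In the depth pairs 14 of 25 fell and 0 rose, without mouse 1 13 of 30 fell, and with Pdlim3 left out of the rule 6 of 30 fell. DESeq2 called 10 lower and 0 higher, and at an unadjusted edgeR p under 0.05 26 were lower and 0 higher. Stmn2, which regulates microtubules in growing neurites, stood at 198, 148 and 141 CPM in mice 1, 2 and 4 (165 in mouse 3), against 616, 601 and 704 CPM in comparison cells (278). Its level was thus lower in all 4 mice with no overlap. The log2 fold change was -1.86 ± 0.11 (SE, edgeR adjusted p = 2.20e-23).

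Tubb3, the neuronal beta-tubulin, stood at 187, 239 and 278 CPM against 695, 649 and 804 CPM, with a log2 fold change of -1.66 ± 0.10 (edgeR adjusted p = 2.96e-23). Neurod1, a transcription factor of granule neuron differentiation, stood at 51.4, 91.1 and 65.0 CPM against 218, 204 and 281 CPM and fell by 1.87 ± 0.17 on the log2 scale (edgeR adjusted p = 2.41e-14). In mouse 3 Neurod1 went the other way, at 207 CPM in 7 cells against 121 CPM. Cntn2, an adhesion molecule of newly postmitotic granule neurons, was near 0 in the 5-gene cells, at 11.9, 0 and 7.22 CPM against 51.3, 23.4 and 33.0 CPM, and its fold change of -2.22 ± 0.41 was not called with Pdlim3 left out of the rule (edgeR adjusted p = 6.88e-05 with it and 0.328 without). Slc17a6, a vesicular glutamate transporter, fell by 2.03 ± 0.37 (edgeR adjusted p = 4.33e-05), Elavl3 by 0.89 ± 0.12 and Mapt by 0.84 ± 0.20. All 7 of these genes were lower in each of mice 1, 2 and 4.

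Transcription factors and other genes of granule progenitors were lower or not called. Of 26 listed, 18 were tested, 0 rose and 4 fell, with a median of -0.27. In the depth pairs 1 rose and 4 fell of 15, 2 of 18 fell without mouse 1 and likewise with Pdlim3 left out of the rule, DESeq2 called 0 higher and 2 lower, and 2 were higher at an unadjusted edgeR p under 0.05. Nhlh2, a helix-loop-helix factor of neural precursors, stood at 54.0, 85.4 and 50.5 CPM against 151, 145 and 164 CPM, without overlap, and fell by 1.35 ± 0.18 (edgeR adjusted p = 5.43e-08). Sox11, which promotes neuronal maturation, stood at 395, 427 and 469 CPM against 628, 688 and 689.6 CPM and fell by 0.61 ± 0.09 (edgeR adjusted p = 1.38e-07). Barhl1 fell by 0.38 ± 0.10 and Zic1 by 0.33 ± 0.09 (edgeR adjusted p = 0.00656 and 0.0112), and the Barhl1 call held in 12 of 24 alternatives. Atoh1, which defines the lineage and drives the Cre, was present in both classes at 159, 154 and 123 CPM against 197, 200.3 and 147 CPM, a difference of -0.28 ± 0.14 that did not pass (edgeR adjusted p = 0.305).

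In the SHH pathway the receptor Ptch1 was higher. Of 24 listed genes 13 were tested, 5 rose (Ptch1, Nkd1, Gas1, Spop and Ccnd1) and Ccnd2 fell, with a median of 0.50. In the depth pairs 2 rose and 1 fell of 10, and with Pdlim3 left out of the rule 1 rose and 1 fell of 15. Ptch1, which is both the inhibitor of Smoothened and a target of Gli factors, stood at 386, 393 and 455 CPM (414 in mouse 3) against 261, 183 and 189 CPM (304). The 5-gene cells were above the comparison cells in all 4 mice, with no overlap. The log2 fold change was 0.96 ± 0.11 (edgeR adjusted p = 4.26e-10), and it was called in all 24 alternatives, between 0.65 and 1.21.

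Other SHH genes were less uniform. Gli1, a direct target and the usual reporter of the pathway, stood at 46.1, 39.8 and 46.9 CPM against 24.9, 43.1 and 33.7 CPM and did not pass (0.52 ± 0.28, edgeR adjusted p = 0.370), nor did Gli2 (0.84 ± 0.35, edgeR adjusted p = 0.19). Nkd1, an inhibitor of Wnt signalling, rose by 0.60 ± 0.11 (edgeR adjusted p = 6.89e-05) and was called in 22 of 24 alternatives. Gas1, an SHH co-receptor, rose by 1.07 ± 0.33 (edgeR adjusted p = 0.0333) but was called in 5 of 19. The 2 D-type cyclins differed in direction: Ccnd2 stood at 847, 905 and 946 CPM (620.3 in mouse 3) against 1398, 1620.4 and 1312 CPM (1157). Ccnd2 was lower in each mouse and fell by 0.64 ± 0.07 (edgeR adjusted p = 5.22e-12), in all 24 alternatives. Ccnd1 rose by 0.28 ± 0.09 (edgeR adjusted p = 0.0342), a call that held in 2 of 24 alternatives.

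**Figure D3:**
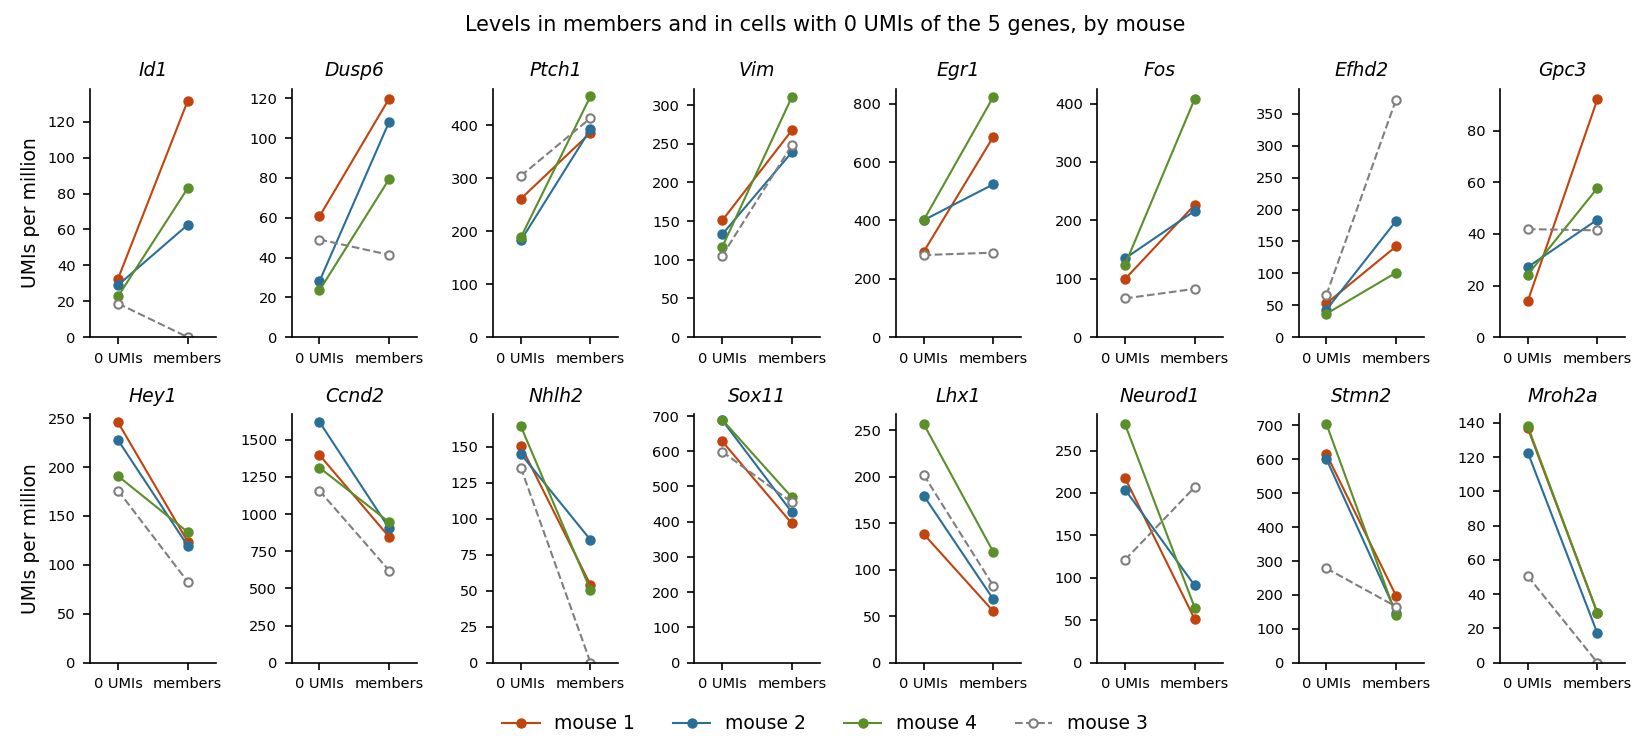
Level (CPM) of 16 genes in comparison cells (0 UMIs) and 5-gene cells (members) of each mouse; lines join the classes of 1 mouse, and mouse 3 with 7 cells (open points, dashed) was not in the tests. The top row rises and the bottom row falls in mice 1, 2 and 4, while mouse 3 crosses the others for Id1, Dusp6 and Neurod1.

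Of 40 listed Notch genes 19 were tested, 1 rose (Notch2) and 1 fell (Hey1), against 5.6% called over all genes, with a median of -0.01, and in the depth pairs 0 of 12 were called. Hey1, a Notch-induced repressor related to Hes1, stood at 124, 119.5 and 134 CPM (82.7 in mouse 3) against 246, 227 and 191 CPM (176). It was lower in all 4 mice, by -0.81 ± 0.14 (edgeR adjusted p = 1.98e-05), with -0.53 and an adjusted p of 0.0852 in the depth pairs. Notch2 rose by 1.66 ± 0.52 (edgeR adjusted p = 0.0404) from 23 and 24 UMIs, a call that held in 3 of 9 alternatives. Rbpj, the DNA-binding partner of Notch, did not pass (0.06 ± 0.27, edgeR adjusted p = 0.955). Hes5 (1 and 3 UMIs in 5-gene and comparison cells), Nrarp (1 and 0), Dll1 (1 and 2), Jag1 (18 and 20) and Notch1 (9 and 7) were too low to test.

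Id genes were higher. They encode inhibitors of helix-loop-helix factors and are induced by BMP signalling. Of 18 listed BMP and Id genes 9 were tested, and Id1, Id2 and Id3 rose and 0 fell, with a median of 0.40. Id1 stood at 132, 62.6 and 83.0 CPM against 32.6, 29 and 22.7 CPM, without overlap, and was at 0 UMIs in the 7 cells of mouse 3. Its log2 fold change was 1.78 ± 0.22 (edgeR adjusted p = 3.90e-09), and it was called in all 23 alternatives that could test it, with 1.49 in the depth pairs and 1.52 with Pdlim3 left out of the rule. Id3 rose by 1.14 ± 0.30 and Id2 by 0.41 ± 0.10 (edgeR adjusted p = 0.00748 and 0.00291), calls that held in 15 of 23 and 14 of 24 alternatives. In mouse 3 Id3 stood at 0 against 13 CPM and Id2 at 496 against 615 CPM, so both were lower in its 7 cells.

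Among 26 genes of FGF signalling and ERK feedback 9 were tested, 3 rose (Dusp6, Etv1 and Egfr) and 0 fell, with a median of 0.75. At an unadjusted edgeR p under 0.05 5 were higher and 0 lower, DESeq2 called 1 higher, and 1 of 9 rose without mouse 1 and likewise with Pdlim3 left out of the rule. Dusp6, the phosphatase that ERK signalling induces and that switches ERK off, stood at 119.8, 108 and 79.4 CPM against 60.6, 28.1 and 23.5 CPM, with no overlap, and at 41.4 against 49.0 CPM in mouse 3. It rose by 1.43 ± 0.22 (edgeR adjusted p = 7.18e-07), by 1.58 in the depth pairs, and was called in 23 of 24 alternatives. Etv1, an ETS factor like Etv5, rose by 1.37 ± 0.36 and the receptor Egfr by 1.14 ± 0.36 (edgeR adjusted p = 0.00842 and 0.0449), calls that held in 11 of 17 and 3 of 17 alternatives. The ERK inhibitor Spry2 (0.94 ± 0.41) and the receptor Fgfr1 (0.53 ± 0.37) did not pass (edgeR adjusted p = 0.222 and 0.549), and Spry1 (13 and 10 UMIs) and Etv4 (14 and 6 UMIs) were too low to test.

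The receptors of Gas6 were too low to test, with 14 and 11 UMIs of Tyro3, 2 and 2 of Axl and 0 of Mertk in the 5-gene and comparison cells of mice 1, 2 and 4. Of 11 genes of the Myc network 9 were tested, 0 rose and Mycn fell, with a median of -0.16. Mycn, the family member that SHH signalling induces in granule precursors, stood at 187, 182 and 162 CPM against 272, 259 and 202 CPM and fell by 0.44 ± 0.13 (edgeR adjusted p = 0.0188), a call that held in 8 of 24 alternatives. Among 30 genes of ribosome biogenesis, a process Myc is known to drive, 28 were tested, 3 rose (Dkc1, Odc1 and Npm1) and 0 fell, with a median of 0.12. The calls of Dkc1 and Odc1 held in 13 and 6 of 24 alternatives. Npm1, a nucleolar chaperone, rose by 0.28 ± 0.05 (edgeR adjusted p = 0.000126), while nucleolin (Ncl) did not pass (0.12 ± 0.07, edgeR adjusted p = 0.391).

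Genes of the G2 and M phases were higher over all 5-gene cells, and few of them were called at matched depth. Of 54 listed, 53 were tested, 30 rose and 0 fell, with a median of 0.54. In the depth pairs 4 of 51 rose, with Pdlim3 left out of the rule 6 of 53, and without mouse 1 20 of 54. DESeq2 called 9 higher and 0 lower. Plk1, a mitotic kinase, stood at 86.9, 148 and 105 CPM against 34.2, 50.5 and 32.3 CPM, without overlap, and rose by 1.56 ± 0.21 (edgeR adjusted p = 2.23e-08), by 1.13 in the depth pairs (edgeR adjusted p = 0.00250). Aurka and Kif23, which act in spindle assembly and cell separation, rose by 1.05 ± 0.22 and 1.08 ± 0.22 (edgeR adjusted p = 0.000514 and 0.000447), and neither was called in the depth pairs (edgeR adjusted p = 0.195 and 0.206).

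Mki67, present in dividing cells, stood at 209, 381 and 296 CPM against 187, 199 and 199.5 CPM and rose by 0.55 ± 0.12 (edgeR adjusted p = 0.00151), but by 0.02 in the depth pairs (edgeR adjusted p = 0.964). Top2a, the topoisomerase of dividing cells, did not pass (0.28 ± 0.10, edgeR adjusted p = 0.0889). Its difference was -0.37 in the depth pairs (edgeR adjusted p = 0.0755), -1.24 in the lower part of cells by cell cycle UMIs and -0.10 with Pdlim3 left out of the rule. Cell cycle UMIs were summed over the S phase and G2M lists, which include Top2a and Mki67. The value in the lower part is thus partly set by the choice of cells. Of 46 S phase genes 0 were called, with 2 higher and 6 lower at an unadjusted edgeR p under 0.05, 0 calls by DESeq2 and a median of -0.11, and in the depth pairs 3 fell. Pcna, the clamp of DNA replication, stood at 101, 137 and 119 CPM against 160.1, 138 and 149.7 CPM (-0.39 ± 0.16, edgeR adjusted p = 0.168). Pcna was called lower in 3 of 24 alternatives, among them the depth pairs (-0.62, edgeR adjusted p = 0.0475). Of 15 tested inhibitors of cyclin-dependent kinases and p53 targets, Cdkn1b fell by 0.74 ± 0.18 (edgeR adjusted p = 0.00456), a call that held in 11 of 24 alternatives, with 165 against 128 CPM in mouse 3, and Cdkn1a did not pass (-0.18 ± 0.19, edgeR adjusted p = 0.742).

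After each cell was thinned to 1500 UMIs, Mki67 or Top2a was detected in 37.3%, 31.6%, 14.3% and 50.9% of the 5-gene cells of mice 1 to 4, against 30.8%, 33.4%, 39.9% and 38.4% of comparison cells. The share was higher in 2 of 4 mice. The mean difference was -2.11 ± 16.8 percentage points (SD, n = 4 mice, exact two-sided sign-flip permutation p = 0.875, where 0.13 is the smallest that 4 mice allow). It was 5.73 percentage points without mouse 3, -16.8 against comparison cells matched in depth and -19.0 in the pairs within 10% of depth. The matched differences did not pass either (exact two-sided sign-flip permutation p = 0.5 and 0.375). Mouse 3 entered both with 1 of 7 against 5 of 7 cells, or -57.1 points. Mice 1, 2 and 4 differed by 3.56, -21.1 and 7.27 points against matched cells, and by -5.08, -21.1 and 7.27 in the pairs. Unthinned shares were 49.6% ± 7.33 and 45.8% ± 5.62 (SD, n = 4). In cells with myeloid genes 1 of 15 had such a UMI (6.67%), at a median depth of 2641 UMIs.

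**Figure D4:**
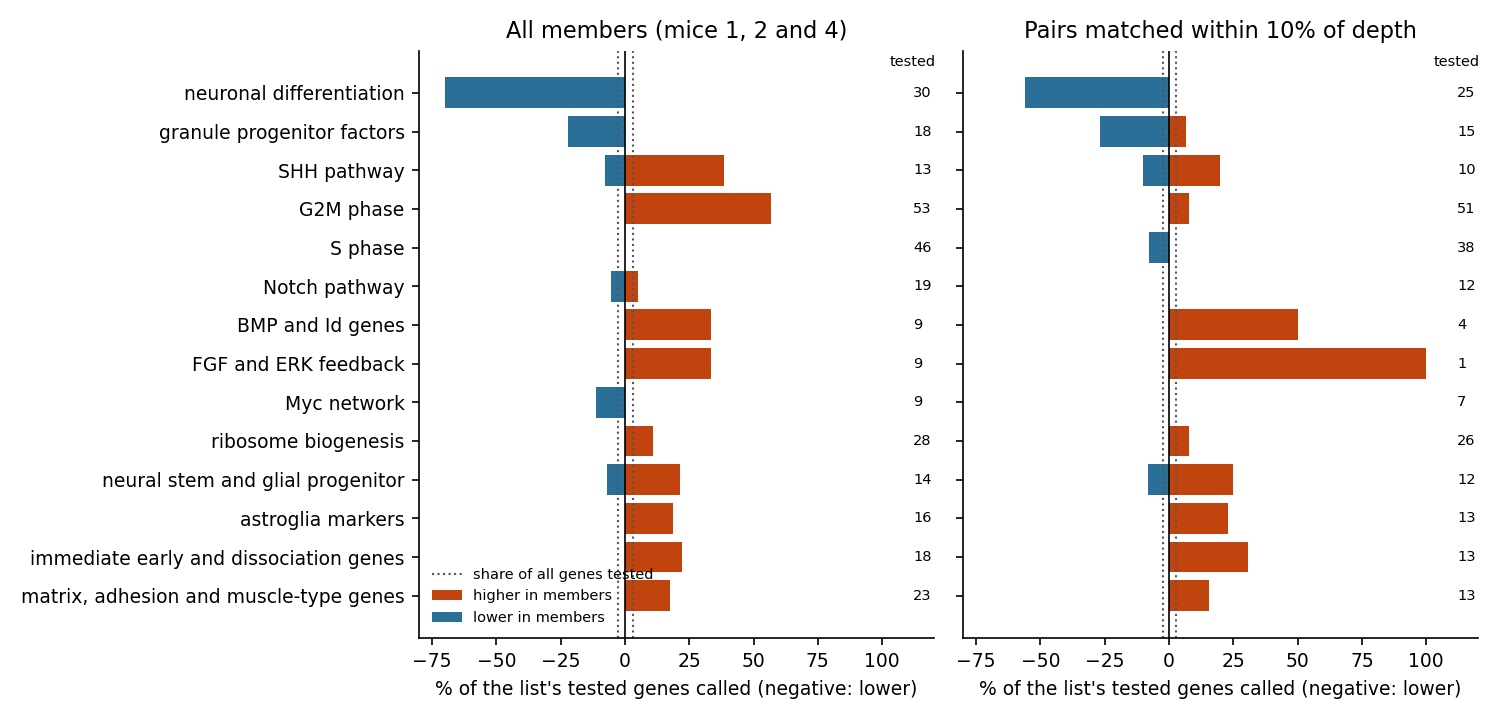
Percent of each list's tested genes called higher (right of 0) or lower (left of 0) in 5-gene cells, over all cells (left panel) and in pairs matched within 10% of depth (right panel). Dotted lines are the shares over all genes tested and the column at the right edge gives the number tested, which is 1 for the FGF and ERK list in the pairs; the G2M bar shrinks from 30 of 53 to 4 of 51 genes while the neuronal bar goes from 21 of 30 to 14 of 25.

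Some genes of radial glia and astrocytes rose. Of 30 neural stem and glial progenitor genes 14 were tested, 3 rose (Vim, Zfp36l1 and Slc1a3) and Cd24a fell, with a median of 0.33, and at an unadjusted edgeR p under 0.05 8 were higher and 2 lower. In the depth pairs 3 rose and 1 fell of 12. Without mouse 1, and likewise with Pdlim3 left out of the rule, 2 rose and 2 fell of 14. Vim, the intermediate filament of progenitors and glia, stood at 267, 239 and 310.4 CPM (248 in mouse 3) against 151, 133 and 117 CPM (105). It was higher in all 4 mice without overlap and rose by 1.06 ± 0.13 (edgeR adjusted p = 2.06e-09), in all 24 alternatives. Nes, another such filament, missed the threshold (1.17 ± 0.38, edgeR adjusted p = 0.0544), Sox9, a factor of glial progenitors, did not pass (0.36 ± 0.15, edgeR adjusted p = 0.186), and Sox2 (13 and 9 UMIs) was too low to test. Of 25 astroglia markers 16 were tested, 3 rose (Sparcl1, S100b and Slc1a3) and 0 fell, with a median of 0.03. In the depth pairs 3 rose and 0 fell of 13. Without mouse 1, 2 rose and 1 fell of 16, and with Pdlim3 left out of the rule 1 rose and 1 fell. Slc1a3 was not called with Pdlim3 left out of the rule (edgeR adjusted p = 0.0862) or by DESeq2 (adjusted p = 0.232). Sparcl1, a secreted matrix protein of astrocytes, rose by 1.18 ± 0.20 (edgeR adjusted p = 1.54e-05), and Apoe, their main apolipoprotein, did not pass (0.03 ± 0.14, edgeR adjusted p = 0.958).

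Marker lists of other cells were low in both classes. Both classes had to hold fewer than 3 UMIs of the 7 glial and myeloid genes, and the excluded glial-gene cells 3 or more. Low astroglia, oligodendrocyte and myeloid sums, and their distance from the glial-gene cells, were thus largely fixed by the choice of cells. Summed astroglia markers ranged over the mice from 16.8 to 22.7 UMIs per 10000 in 5-gene cells and from 15.5 to 18.5 in comparison cells, against 51.1 to 197 in the glial-gene cells. The 22 oligodendrocyte lineage markers summed to 3.31 to 4.15 against 3.54 to 5.55 UMIs per 10000, with 7 of the 22 at 0 UMIs in 5-gene cells and Sox10 at 2 UMIs. Among those tested, Cldn11 rose (log2 fold change 1.06 ± 0.31) and Pdgfra fell (-0.97 ± 0.20) (edgeR adjusted p = 0.0217 and 0.000555), and the Cldn11 call held in 7 of 20 alternatives. Of 21 myeloid markers 14 were at 0 UMIs in 5-gene cells, C1qa among them, and the list summed to at most 0.29 UMIs per 10000 in any mouse. Vascular markers summed to at most 0.78, with 13 of 20 at 0, and meningeal markers to at most 0.37, with 6 of 16 at 0. The comparison cells of mouse 1 included 2 cells with 734 UMIs of choroid plexus genes, 679 UMIs of that class being Ttr, which 5-gene cells held at 1 UMI in all, and their part in the results was not tested. Lhx1, from a list of other cerebellar neurons, fell by 1.22 ± 0.16 (edgeR adjusted p = 3.41e-08) in all 24 alternatives, at 55.3, 68.3 and 119 CPM against 138, 179.7 and 257 CPM.

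Immediate early genes, which growth signals and tissue dissociation both induce, were higher in part. Of 30 listed 18 were tested, 4 rose (Fos, Egr1, Fosb and Ier2) and 0 fell, with a median of 0.34, 4 of 13 rose in the depth pairs, and 2 of 18 with Pdlim3 left out of the rule. The Fosb call held in 6 of 15 alternatives. Egr1 stood at 686, 524 and 823 CPM (289 in mouse 3) against 292, 401 and 401 CPM (281), and rose by 0.97 ± 0.09 (edgeR adjusted p = 3.25e-13). Fos stood at 227, 216 and 408 CPM (82.7) against 99.5, 135 and 124 CPM (66.4), and rose by 1.32 ± 0.14 (edgeR adjusted p = 5.44e-12). Both were higher in all 4 mice and called in all 24 alternatives.

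Among matrix, adhesion and actin-linked genes, chosen because Pdlim3 binds the actin cytoskeleton, 4 of 23 rose (Gpc3, Col4a1, Pdlim4 and Actn1) and 0 fell, with a median of 0.25, and 1 of 23 rose without mouse 1. The Col4a1 call held in 8 of 17 alternatives. Gpc3, a glypican that binds hedgehog ligands, stood at 92.2, 45.5 and 57.8 CPM against 14.0, 27.1 and 24.2 CPM and rose by 1.66 ± 0.27 (edgeR adjusted p = 5.24e-06), but was not called without mouse 1 (edgeR adjusted p = 0.177). In mouse 3 it stood at 41.4 against 41.8 CPM. The alpha-actinin Actn1 rose by 1.33 ± 0.33 and Pdlim4, a relative of Pdlim3, by 1.23 ± 0.29 (edgeR adjusted p = 0.00401 and 0.00251). The Wnt receptor Fzd1 rose by 1.52 ± 0.28 (edgeR adjusted p = 4.00e-05) and the growth factor Pdgfa by 0.43 ± 0.12 (edgeR adjusted p = 0.0207), calls that held in 21 and 5 of 24 alternatives. Of 46 tested genes of extracellular vesicles, the subject of the series title, Anxa6 rose by 1.25 ± 0.30 and Gnb1, Tsg101 and Cd63 fell, with a median of -0.01. The calls of Gnb1 and Tsg101 held in 14 and 4 of 24 alternatives. Cd63, a tetraspanin of vesicles, fell by 0.31 ± 0.06 (edgeR adjusted p = 0.000514) and Cd81, another, did not pass (-0.11 ± 0.08, edgeR adjusted p = 0.591). In glycolysis Ldha rose by 0.49 ± 0.09 and Aldoa fell by 0.72 ± 0.12 (edgeR adjusted p = 4.96e-05 and 1.16e-05). Among chromatin genes H2afx rose by 0.37 ± 0.10 (edgeR adjusted p = 0.0138), called in 5 of 24 alternatives and with the opposite sign in 5 others. Among nuclear RNAs Kcnq1ot1 fell by 0.44 ± 0.12 (edgeR adjusted p = 0.0104), called in 12 of 24, while Malat1 did not pass (0.07 ± 0.04, edgeR adjusted p = 0.490).

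Outside the lists, Efhd2, a calcium-binding protein that binds actin, had the smallest adjusted p among the 10 highest genes. It stood at 142, 182 and 101 CPM (372 in mouse 3) against 52.9, 43.1 and 36.7 CPM (66.4), higher in all 4 mice. Its rise of 1.66 ± 0.19 (edgeR adjusted p = 1.71e-10) was called in all 24 alternatives. The 9 others, at few UMIs, were Trip6 (2.24 ± 0.63), Sbspon (2.11 ± 0.38), Acer3 (2.05 ± 0.50), Fbln2 (1.85 ± 0.46), Bora (1.85 ± 0.35), Sepp1 (1.81 ± 0.39), Ifitm10 (1.77 ± 0.36), Lama5 (1.76 ± 0.40) and Mgst1 (1.65 ± 0.38). Among them are a laminin chain (Lama5), a fibulin of the matrix (Fbln2) and Bora, an activator of Aurora A kinase. The calls of Trip6, Sbspon and Acer3 held in 5 of 7, 17 of 18 and 8 of 13 alternatives. Those of Fbln2, Bora and Sepp1 held in 11 of 15, 16 of 20 and 15 of 16. Those of Ifitm10, Lama5 and Mgst1 held in 16 of 17, 12 of 16 and 13 of 17. The adjusted p-values of the 9 by edgeR ran from 4.00e-05 for Sbspon to 0.0158 for Trip6. With Pdlim3 left out of the rule Acer3, Fbln2, Bora and Lama5 were not called (edgeR adjusted p = 0.172, 0.264, 0.694 and 0.619). Without mouse 1 Sbspon, Fbln2 and Mgst1 were not called (edgeR adjusted p = 0.216, 0.431 and 0.108). Trip6 was tested in neither setting, and Ifitm10 not without mouse 1.

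Of the 10 lowest genes outside the lists, 3 were called in every alternative that tested them. Ren1, the gene of renin, stood at 13.2, 0 and 0 CPM (10 UMIs) against 159, 115 and 25.7 CPM (260 UMIs), and fell by 3.84 ± 0.32 (edgeR adjusted p = 1.49e-15). All of its UMIs in 5-gene cells came from mouse 1. Mroh2a, a HEAT repeat gene of unsettled role, stood at 29, 17.1 and 28.9 CPM against 137, 123 and 138 CPM and fell by 2.28 ± 0.22 (edgeR adjusted p = 6.91e-13). Eln, the gene of elastin, stood at 27.7, 11.4 and 54.1 CPM against 138, 80.5 and 161 CPM and fell by 2.05 ± 0.22 (edgeR adjusted p = 2.20e-11). For these 3 genes no mouse overlapped between the classes. Lmo2 (-2.30 ± 0.51), Serpini1 (-2.27 ± 0.51), Pou2f2 (-2.10 ± 0.47), Pak7 (-1.98 ± 0.38), Tex14 (-1.93 ± 0.33) and Gsdmd (-1.85 ± 0.50) fell too, with edgeR adjusted p-values from 1.28e-05 for Tex14 to 0.0111 for Gsdmd. Caln1 held 2 UMIs against 52, 10.3-fold lower (95% counting interval 2.70 to 86.9). That interval covers counting error of the pooled UMIs only, not the spread between cells or mice. The calls of Lmo2, Serpini1 and Pou2f2 held in 13 of 17, 13 of 16 and 12 of 16 alternatives. Those of Pak7 and Caln1 held in 20 of 23 and 10 of 12. With Pdlim3 left out of the rule Serpini1, Pou2f2, Pak7 and Caln1 were not called (edgeR adjusted p = 0.214, 0.336, 0.0846 and 0.438). Without mouse 1 they and Lmo2 were not called (edgeR adjusted p = 0.176, 0.266, 0.326, 0.177 and 0.0720). In mouse 3 Serpini1 went the other way, at 41.4 against 11.5 CPM.

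**Figure D5:**
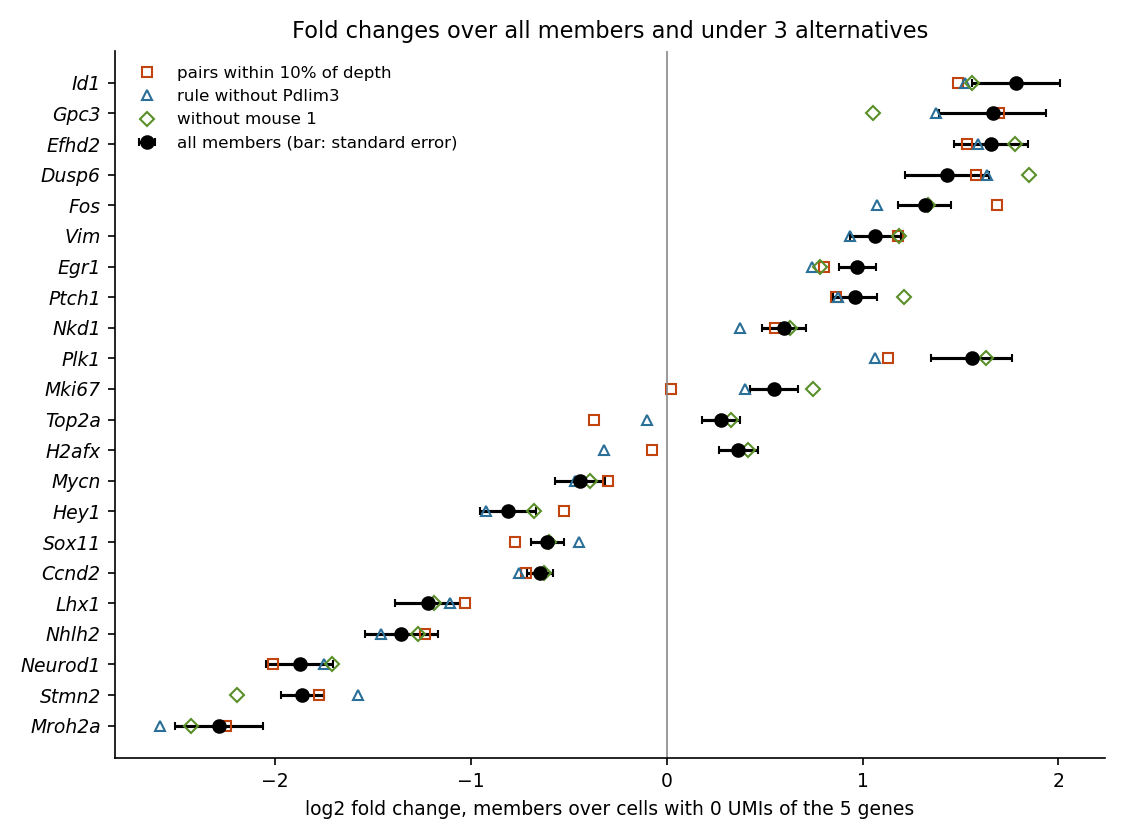
Log2 fold change of 22 genes between 5-gene and comparison cells in mice 1, 2 and 4 (black, bars are standard errors), in pairs within 10% of depth, with Pdlim3 left out of the rule, and without mouse 1. The outer genes from Id1 to Ptch1 and from Sox11 to Mroh2a keep their sides in each setting, while Top2a and H2afx change sign between settings and Mki67 falls to 0.02 in the pairs.

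Hes1, Gas6 and Etv5 are also known from glia, and the 5-gene cells were compared with the 178 cells excluded for 3 or more UMIs of the glial and myeloid genes, in the same 3 mice. Of 3867 genes tested, 25 were higher in 5-gene cells (0.646%) and 123 lower (3.18%), which together is 3.83%, and 16.2% did not overlap between the classes. Glial and myeloid genes led the lower side, which the exclusion fixed. Of 16 astroglia markers 11 were lower, of 8 oligodendrocyte lineage markers 6, and all 3 tested myeloid markers. Apoe stood at 228, 85.4 and 231 CPM in 5-gene cells against 4024, 885 and 4109 CPM. Among the lowest genes, Ctss was at 0 UMIs against 137, at least 83.9-fold lower by a floor of 3 UMIs over the class, and Pmp22 at 0 against 31, at least 19.0-fold lower. Lyz2 (2 against 269 UMIs) was 247-fold lower (95% counting interval 67.8 to 2052), Fcer1g (1 against 98) 180-fold (31.6 to 7187) and Qpct (3 against 79) 48.4-fold (16.0 to 239.7). These intervals cover counting error of UMIs pooled over mice 1, 2 and 4, not the spread between cells or mice. Mouse 2 gave 134 of the 269 Lyz2 UMIs. Ptprz1, a receptor of glial precursors, fell by 5.55 ± 0.35 (edgeR adjusted p = 1.96e-16).

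Against the glial-gene cells, 6 of 23 tested neuronal genes were lower in 5-gene cells and 0 higher, with a median of -0.34. Of 13 tested granule progenitor genes Mfap4 and Cdk6 rose by 0.85 ± 0.21 and 0.64 ± 0.15 (edgeR adjusted p = 0.00736 and 0.00430) and 0 fell, and Ptch1 rose by 1.03 ± 0.17 (edgeR adjusted p = 3.37e-05), at 386, 393 and 455 CPM against 215, 228 and 157 CPM. Sowaha rose by 1.33 ± 0.20 (edgeR adjusted p = 3.84e-06) and was called in all 7 alternatives. The other highest genes were Tmem91 (2.93 ± 0.59), Fzd1 (2.26 ± 0.49), Cdca7 (1.42 ± 0.34), Tpp2 (1.35 ± 0.36) and Fbxo5 (1.17 ± 0.33), with edgeR adjusted p-values from 0.000612 for Tmem91 to 0.0275 for Fbxo5. The calls of Tmem91 (74 against 5 UMIs) and Fzd1 held in 4 of 5 and 4 of 6 alternatives. Those of Cdca7, Tpp2 and Fbxo5 held in 2 of 5, 3 of 6 and 2 of 6. DESeq2 did not call any of these genes apart from Sowaha. Vim (0.59 ± 0.18), Id1 (0.48 ± 0.30) and Dusp6 (0.50 ± 0.27), which rose against the comparison cells, did not pass here (edgeR adjusted p = 0.0628, 0.533 and 0.445). Stmn2 was lower in 5-gene cells here too, by 1.05 ± 0.18 (edgeR adjusted p = 3.75e-05), and so was Fos, by 0.62 ± 0.15 (edgeR adjusted p = 0.00757). Without mouse 4, 31 genes were called (1 higher and 30 lower), and without mouse 1, 253 (6.15%, with 0.973% higher and 5.18% lower).

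Within the 5-gene cells, those with a Hes1 UMI were compared with those without. The 95 cells with Hes1 held a median of 3493 UMIs and the 230 without held 3331.5. Of 2666 genes tested, 0 were higher and 3 were lower in cells with Hes1 (0.113%), with 8.1% of genes not overlapping between the classes. At an unadjusted edgeR p under 0.05 122 genes were called, and DESeq2 called 0 with 4 at an unadjusted p under 0.05. The 3 genes were Hmgb2, a chromatin protein, and Ube2c and Arl6ip1, the first of which acts in mitotic exit; the last 2 fell outside the rule for named genes and were named after their values were seen. Hmgb2 stood at 1785, 1493 and 2763 CPM against 2096, 2814 and 3317 CPM, lower in each of the 3 mice, by 0.40 ± 0.09 (edgeR adjusted p = 0.0181). Ube2c (-0.82 ± 0.19) and Arl6ip1 (-0.67 ± 0.15) were lower in 2 of the 3 mice, with the same adjusted p of 0.0181 by edgeR. The calls were lost without mouse 1, without mouse 2 and without the block (0 calls each, with 48, 126 and 73 genes at an unadjusted edgeR p under 0.05), and 10 genes were called without mouse 4.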

How the data were processed

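The deposited values were raw UMI counts for 27998 genes per cell barcode, 1 matrix per mouse. The submitters' processing notes name Cell Ranger 2.0.2, Seurat and the build mm10, and the deposited counts were not normalized. Accutase was used to free the cells, and dead cells were sorted out, per the labels' protocols. From these counts, cells were chosen by the rule above, and the 5-gene cells and the 31 gene lists, markers included, were chosen with earlier results of these data known. Lists are described by counts and medians, with no test of their own.

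Counts were summed per mouse and class, with at least 10 cells per class. The plan named all 4 mice, but this minimum left mouse 3 out of the fits. edgeR 4.0.16 in R 4.3.3 (filterByExpr, TMM scaling, quasi-likelihood test, Benjamini-Hochberg threshold 0.05) was the main tool and DESeq2 1.42.0 an alternative. Python 3.11.15 with numpy 2.4.6, scipy 1.17.1, pandas 2.3.3 and matplotlib 3.10.9 did the rest. The classes of 1 mouse are paired, since both come from the same animal and library; their deviations from the class means correlated at 0.236, 0.0995 and 0.224 in mice 1, 2 and 4. Tested on simulated data with 7183 genes, the main comparison recovered 54% of changes of 1 and 98% of changes of 2 on the log2 scale, with 3.18% of calls false. No doublet caller was run, and the deepest 5% of each mouse's cells were left out as an alternative.

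Named genes were a fixed set of known members of each pathway, up to 3 genes per list and direction with the largest called fold change, the same direction in each fitted mouse and at least 30 UMIs, and by the same conditions the 10 highest and 10 lowest outside the lists and the 6 highest and 6 lowest of the other comparisons. Named after their values were seen were Tubb3, Elavl3, Mapt, Zic1, Spop, Ier2, S100b and Pdlim4 in the main comparison, and Apoe, Cdk6, Dusp6, Fos, Id1, Mfap4, Ptch1, Stmn2 and Vim against the glial-gene cells. One result is not reported here. Alternatives changed depth (thinning, matching), the rule, quality limits, cell cycle class, filter, tool, block and mice.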

Additional observations from a re-analysis of the deposited data

Results flagged for a closer look

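For the named genes, the 4 mouse values in each class of the main comparison were checked for 1 value far from the rest. Levels of the 5 genes of the rule, the share of 5-gene cells, quality medians and the cycling share were checked too. Such a value was found in 18 of 196 sets, all of them of named genes. Chance gives about 1 in 20 for normally distributed values, which genes of few UMIs need not have. In 5-gene cells mouse 3 stood apart for Rbpj, Gli1 and Anxa6 (0 CPM each), Mycn and Serpini1 (41.4 CPM each), Nes (82.7 CPM), Pdgfa (538 CPM), Npm1 (1447 CPM) and Col4a1 (124 CPM). It holds 7 such cells, in which 1 UMI is worth 41.4 CPM, and it was not in the tests. Mouse 1 stood apart for Malat1 (11525 CPM), Gnb1 (228 CPM) and Ren1 (13.2 CPM), and mouse 4 for Lama5 (21.7 CPM). In comparison cells mouse 3 stood apart for Id2 (615 CPM), Sepp1 (26.0 CPM) and Mgst1 (20.2 CPM), and mouse 2 for Zfp36l1 (114 CPM) and Anxa6 (26.2 CPM).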

How the results depend on the processing

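Against the 402 genes of the main comparison, edgeR called 138 with cells thinned to 1500 UMIs, 177 with depth-matched comparison cells, 223 in pairs within 10% of depth, 256 against all other eligible cells, 144 with at least 4 UMIs from 3 genes, 185 with 0 UMIs of the glial and myeloid genes, 216 and 159 in the lower and upper part by cell cycle UMIs, 244, 222 and 158 without Gas6, Etv5 and Pdlim3 in the rule, and 235 without the deepest cells. DESeq2 called 88. Leaving out 1 mouse gave 193 to 325 calls. The limits on mitochondrial UMIs and Malat1, the rule without Hes1 or Myc, mouse 3 brought in, no filter on low counts, and pairs matched in depth and cell cycle kept the count between 282 and 386. Without the mouse block, which gives up the pairing, 139 genes were called, and 103 against the glial-gene cells. Against those cells 148 calls became 49 (thinned), 39 (DESeq2), 366 (no filter) and 31 to 253 (1 mouse left out). For cells with and without Hes1 the 3 calls became 1 (thinned), 0 (DESeq2), 0 (no block) and 0 to 10 (1 mouse left out). Thinning, matching, stricter rules and left-out mice enter fewer UMIs, cells or mice into the fits. The cause of the changes in the number of calls was not tested for any setting.

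Reversed in sign were Mki67 (-0.0407) and Top2a (-0.46) in pairs matched in depth and cell cycle, and H2afx at -0.0622 (thinned), -0.0161 (lower part by cell cycle UMIs), -0.32 (rule without Pdlim3), -0.0761 (pairs within 10%) and -0.14 (pairs matched in both); the cause was not tested. Of these, Mki67 and H2afx passed in the main comparison and Top2a in the matched pairs. The cell cycle UMIs used for matching and splitting include those of Mki67 and Top2a. Values of these genes in such settings are thus partly set by the choice of cells. A further 30 values changed sign without passing in either setting. They were Top2a at -0.0754 (depth-matched), -0.0107 (4 UMIs from 3 genes), -1.24 (lower part), -0.10 (without Pdlim3) and -0.37 (pairs within 10%), Gli1 at -0.21 and Atoh1 at 0.0574 (thinned), Cdkn1a at 0.25 (4 UMIs), 0.14 (without Pdlim3) and -0.41 to 0.0235 (1 mouse left out), and Malat1 at -0.0444 (without low-Malat1 cells) and -0.0231 to 0.12 (1 mouse left out). Rbpj stood at -0.37 (thinned), -0.0866 (depth-matched), -0.0905 (4 UMIs), -0.0729, -0.0525 and -0.0379 (without Gas6, Pdlim3 and Myc), -0.00934 (mouse 3 brought in), -0.27 (without the deepest cells) and -0.0341 to 0.21 (1 mouse left out). Apoe stood at -0.0203 (all other eligible cells), -0.0103 (4 UMIs), -0.21 (upper part), -0.0656, -0.000844 and -0.0685 (without Gas6, Etv5 and Myc), -0.12 (DESeq2), -0.0129 (no filter) and -0.33 to 0.19 (1 mouse left out). Over the named genes of the main comparison, 1445 values under the alternatives kept direction and side of the threshold, 401 kept direction only, 6 newly passed and 37 reversed. The cycling share, with a difference of -2.11 percentage points, was 3.78 points higher unthinned and -6.98 to 5.73 with 1 mouse left out, and passed in none. The rule on thinned counts was planned for this comparison and not run, since mouse 1 alone kept 10 cells. Depth limits the genes of few UMIs, among them the Gas6 receptors and most Notch ligands, which could not be tested.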
